A study of Asparagus officinalis with 12 samples.

Results

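The genes examined here are named by their descriptions as members of auxin carrier families, or as PINOID kinases. Not all of them are known to carry auxin, and transport itself was not measured in these RNA data. A gene was taken as a member when its deposited description contained "auxin efflux carrier", "PIN-LIKES", "auxin transporter-like", "auxin transporter pro", "ABC transporter B family", "D6 protein kinase" or "PINOID". This gave 52 of the 35166 genes in the table, namely 10 auxin efflux carrier components (the PIN family), 9 PIN-LIKES, 5 auxin transporter-like genes (the AUX/LAX family), 26 ABC transporters of the B family (ABCB) and 2 PINOID kinases. The words "auxin transporter pro" and "D6 protein kinase" matched 0 genes.

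RNA was sequenced from stems of the cultivar 'Fengdao 2' of Asparagus officinalis at 4 stages of elongation, H-10 to H-60, which are named for the height of the plant (10 cm for H-10, then 25, 40 and 60 cm). All 12 libraries, 3 per stage, come from whole stem segments, with a stem diameter of 13 to 15 mm. The stages differ by label in height and in the segment taken. At H-10 the segment lay 3 to 6 cm along the stem and at the other 3 stages 17 to 20 cm, so stage and position cannot be told apart in H-10 vs. H-25. Among the other 3 stages the same segment lies farther from the tip in taller stems. Stage and distance from the tip cannot be told apart there. A segment holds all tissues of the stem, and fewer cells of a type cannot be told apart from less RNA per cell.

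Auxin is made mainly in young tissue and passes from cell to cell. AUX/LAX proteins carry it into the cell and PIN proteins carry it out, and the side of the cell on which PINs sit sets the direction of flow. Some ABCB proteins also move auxin across the plasma membrane, PIN-LIKES act at the endoplasmic reticulum, and in Arabidopsis the kinase PINOID phosphorylates PINs.

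Values are FPKM, the number of sequenced fragments of a gene scaled by its length and by the library, and they can be compared between genes. Of the 52 members, 38 had 3 or more libraries with at least 1 FPKM and were tested among the 20352 genes of the table that did so. A gene was called when the adjusted p of limma (Benjamini-Hochberg over the 20352 genes) was at most 0.05 and the log2 fold change of FPKM + 1, always the later stage minus the earlier, was at least 1 in size. The SE beside a fold change is that of limma, with all 12 libraries in 1 model, and n is 3 per stage throughout. In total 15 of the 38 tested members were called in at least 1 of the 4 comparisons made, where 38.8% of all tested genes were. They were all 5 AUX/LAX genes, both kinases, 2 of 5 efflux carriers, 1 of 8 PIN-LIKES and 5 of 18 ABCB genes.

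Library totals, as fragments recovered from the FPKM, ran from 13468440 to 16980659. Replicate 2 of H-25 stood apart from the other H-25 libraries, with a summed FPKM of 47486 over 214 ribosomal protein genes against 80067 and 89834. Its sum over 12 genes listed for the secondary wall was 600.2 FPKM against 151 and 167. Over the 38 tested members its root mean square distance from the mean of the other H-25 libraries was 0.84 on the log2 scale, against 0.50 and 0.46 for replicates 1 and 3. Without it the H-25 sum was 109 FPKM for the AUX/LAX genes and 176 for the ABCB genes. From H-10 to H-25, 1 member was then called lower in place of 0, and 4 were called higher in place of 3.

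Over the 4 comparisons the members had the fewest calls from H-10 to H-25 and, among neighbouring stages, the most from H-25 to H-40. From H-10 to H-25, 3 of 38 tested members were higher (LOC109836865 and both kinases) and 0 lower, where 1.54% of all tested genes were called higher and 2.91% lower (4.45% in all). The count of 0 is that of limma on FPKM. With limma voom on recovered fragments it was also 0. At an unadjusted p under 0.05, 8 members were higher and 2 lower (LOC109836596 and LOC109848769), where 11.3% and 11.4% of all tested genes were. From H-25 to H-40, 3 were higher and 6 lower against 11.9% and 12.2% of all genes (24.1% in all), so that 23.7% of the members were called, which is about the background. From H-40 to H-60, 2 were higher and 4 lower against 3.02% and 2.28% (5.31% in all). From H-25 to H-60, 3 were higher and 10 lower against 16.3% and 16.2% (32.5% in all). Libraries of the later stage all lay above those of the earlier stage for 8 members and all below for 1 from H-10 to H-25, where 24.2% of all tested genes did not overlap (12.5% above, 11.6% below). From H-25 to H-40 it was 10 above and 11 below (47.7% of all genes, 23.9% and 23.8%), from H-25 to H-60 9 and 14 (57.7%, 29.6% and 28.1%). From H-40 to H-60, 1 lay above, LOC109829760, and 14 below, where 14.8% and 14.6% of all genes did (29.4% in all). The 4 comparisons share libraries, and members near the FPKM minimum are in the test because of the stage where they are high.

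The median log2 fold change of the 38 tested members was 0.01 from H-10 to H-25, 0.18 from H-25 to H-40, -0.19 from H-40 to H-60 and -0.10 from H-25 to H-60. Over all tested genes it was 0.00, 0.01, 0.01 and 0.02. Rescaling to TPM moved the median of all genes to -0.19 from H-10 to H-25, to 0.10 from H-25 to H-40 and to 0.15 from H-25 to H-60, and no value of a named member changed its direction while it was called.

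**Figure D1:**
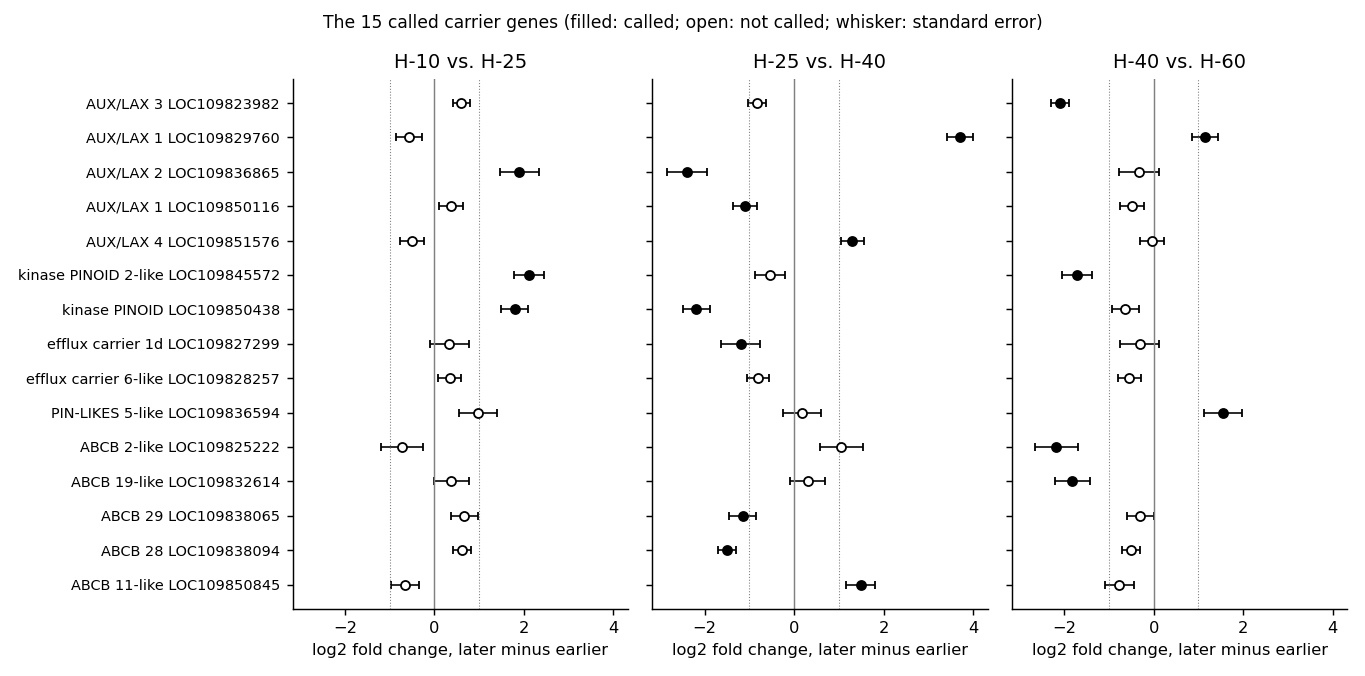
Log2 fold change of FPKM + 1 (horizontal axes, later minus earlier stage) of the 15 called members in the 3 comparisons of neighbouring stages, as a point with the SE of limma as a whisker. Filled points are called, dotted lines mark a log2 fold change of 1 in size, and LOC109829760 at 3.70 stands farthest from 0.

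All 5 AUX/LAX influx carriers were called in at least 1 comparison. LOC109829760 and LOC109851576 rose from H-25 to H-40, while LOC109836865 and LOC109850116 fell. LOC109823982 was called lower from H-40 to H-60. Its mean had already gone from 25.8 FPKM at H-25 to 14.1 at H-40, a change under the fold required. The 5 genes together had an FPKM of 151 ± 12.8 (SD, n = 3) at H-10 and 133 ± 41.4 at H-25. Their sum was 329 ± 77.6 at H-40 and 423 ± 41.3 at H-60, and all late libraries lay above all early ones.

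LOC109829760, auxin transporter-like protein 1, lies on the minus strand of chromosome 2 from 246666 to 252231 in Aspof.V1, the RefSeq assembly. It had 9.42, 11.3 and 9.35 FPKM in the H-10 libraries, 4.35, 10.4 and 5.62 at H-25, 66.6, 139 and 92.7 at H-40, and 199, 243 and 197 at H-60. Every H-40 library lay above every H-25 library and every H-60 library above every H-40 library, while H-10 and H-25 overlapped. The log2 fold change was 3.70 (SE 0.290, adjusted p = 4.80e-06) between H-25 and H-40 and 4.85 (SE 0.290, adjusted p = 3.40e-07) from H-25 to H-60. From H-40 to H-60 it was 1.15 (adjusted p = 0.0326), a call that was lost without replicate 1 or 3 of H-40 and without any single H-60 library, where the adjusted p of LOC109829760 reached 0.128.

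LOC109851576, auxin transporter-like protein 4 (chromosome 8, 131044346 to 131051154, plus strand), was the most abundant carrier gene of the family at H-10, H-25 and H-40. Its FPKM was 109, 127 and 127 at H-10, 65.6, 138 and 68.1 at H-25, 178, 262 and 202 at H-40, and 178, 215 and 227 at H-60. The 6 libraries of the last stages all lay above the 6 earlier ones. The log2 fold change was 1.30 (SE 0.261, adjusted p = 0.00215) between H-25 and H-40 and -0.04 (adjusted p = 0.956) from H-40 to H-60. Replicate 2 of H-25 was the high library at that stage, and without it the log2 fold change of LOC109851576 was -0.84 (adjusted p = 0.0120) from H-10 to H-25 and 1.65 (adjusted p = 3.81e-05) to H-40.

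LOC109823982, auxin transporter-like protein 3 (chromosome 9, 26248688 to 26255534, plus strand), went the other way. The study designed a PCR primer pair for this gene under the name AUX1, and the pair is shown because it ties that name to this member, 5′ to 3′ and with no part in capitals.
Forward primer of LOC109823982: cgatgtggaagccgcagaag
Reverse primer of LOC109823982: tgagcatgaggataaccgcagt
Its FPKM was 15.8, 18.2 and 15.9 at H-10, 26.6, 27.0 and 23.7 at H-25, 14.6, 11.4 and 16.4 at H-40, and 1.92, 2.26 and 3.53 at H-60. H-25 was the highest stage in every library and H-60 the lowest, with no overlap with any other stage. From H-40 to H-60 LOC109823982 fell by 2.10 on the log2 scale (SE 0.198, adjusted p = 0.000113), and from H-25 to H-60 by 2.93 (adjusted p = 6.46e-07). Between H-25 and H-40 the log2 fold change was -0.83 (adjusted p = 0.00566), which is below the fold required, and from H-10 to H-25 it was 0.60 (adjusted p = 0.0914).

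LOC109836865, auxin transporter-like protein 2 (chromosome 4, 20263350 to 20267936), was a gene of H-25. It had 0.419, 0.677 and 1.37 FPKM at H-10, 7.57, 1.72 and 11.5 at H-25, 0.241, 0.452 and 0.128 at H-40, and 0, 0.0412 and 0 at H-60. The H-25 libraries lay above all others, replicate 2 by the least. LOC109836865 rose by a log2 fold change of 1.90 (SE 0.443, adjusted p = 0.0279) from H-10 to H-25, a call that was lost in 6 of 19 alternatives, among them leaving out replicate 1 or 2 of H-10 or replicate 1 or 3 of H-25. It fell by 2.39 on the log2 scale from H-25 to H-40 (adjusted p = 0.00131). At H-60 only 1 fragment was counted in the 3 libraries against 630 at H-25, a ratio of 562 with an exact 95% interval of 101 to 22240 that covers counting error only.

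LOC109850116, also auxin transporter-like protein 1 (chromosome 7, 46499071 to 46505505), was low throughout. Its FPKM was 1.11, 2.36 and 2.67 at H-10, 2.28, 3.69 and 2.62 at H-25, 0.666, 0.536 and 1.26 at H-40, and 0.117, 0.504 and 0.260 at H-60. All H-40 libraries lay below all H-25 libraries and all H-60 libraries below all H-40 libraries. LOC109850116 fell by 1.09 on the log2 scale from H-25 to H-40 (SE 0.270, adjusted p = 0.00731), which was lost without replicate 2 of H-25 or of H-40, and by 1.57 from H-25 to H-60 (adjusted p = 0.000486).

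**Figure D2:**
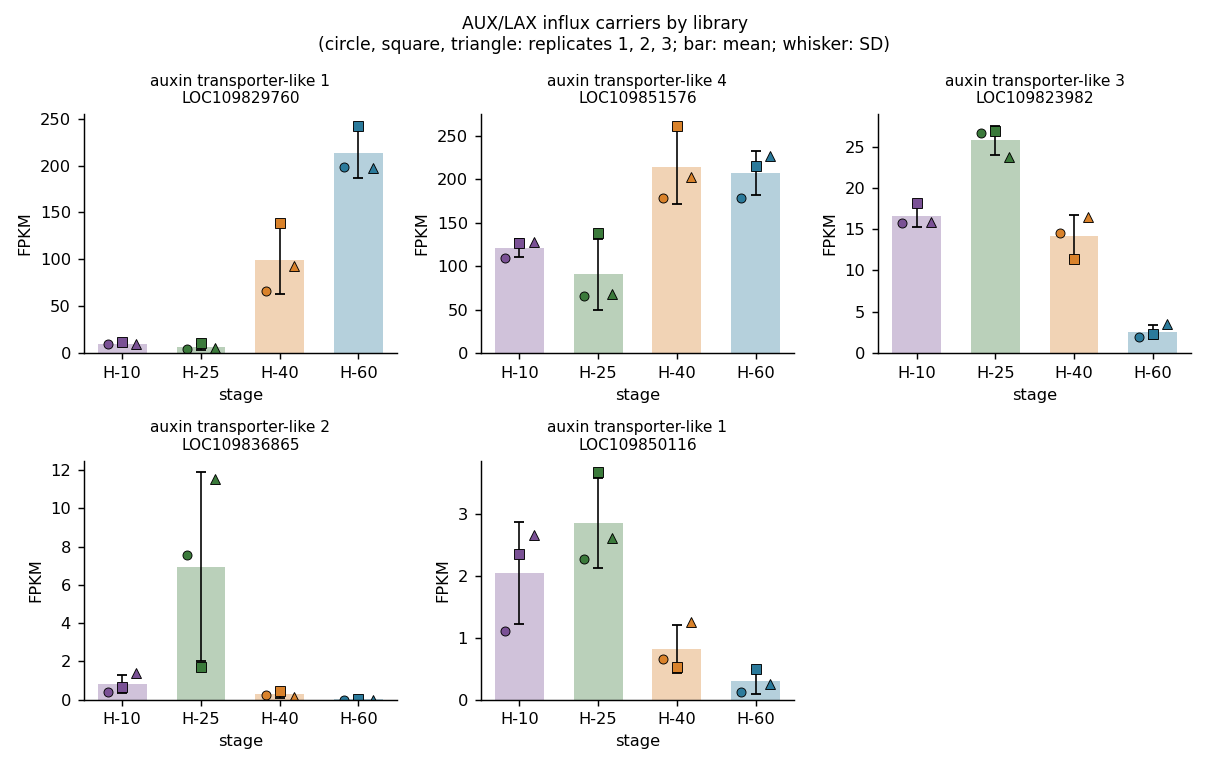
FPKM (vertical axes, linear, each with its own range) of the 5 AUX/LAX genes at the 4 stages, with 1 point per library, the mean as a bar and the SD as a whisker (n = 3). LOC109829760 reaches 197 to 243 at H-60, whereas LOC109823982, LOC109836865 and LOC109850116 have their highest mean at H-25 and their lowest at H-60.

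The make-up of the AUX/LAX RNA therefore differed between stages. LOC109851576 made up 80.4% ± 0.88 (SD, n = 3) of the summed FPKM at H-10 and 48.9% ± 3.54 at H-60. LOC109829760 had 4.95% ± 0.83 at H-25, against 29.6% ± 4.04 at H-40 and 50.4% ± 3.72 at H-60, so that the ranges of LOC109829760 (46.1% to 52.7%) and LOC109851576 (46.7% to 53.0%) overlapped at H-60. LOC109823982 had its highest share at H-25, at 20.4% ± 5.11, and its lowest at H-60, at 0.607% ± 0.188.

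**Figure D3:**
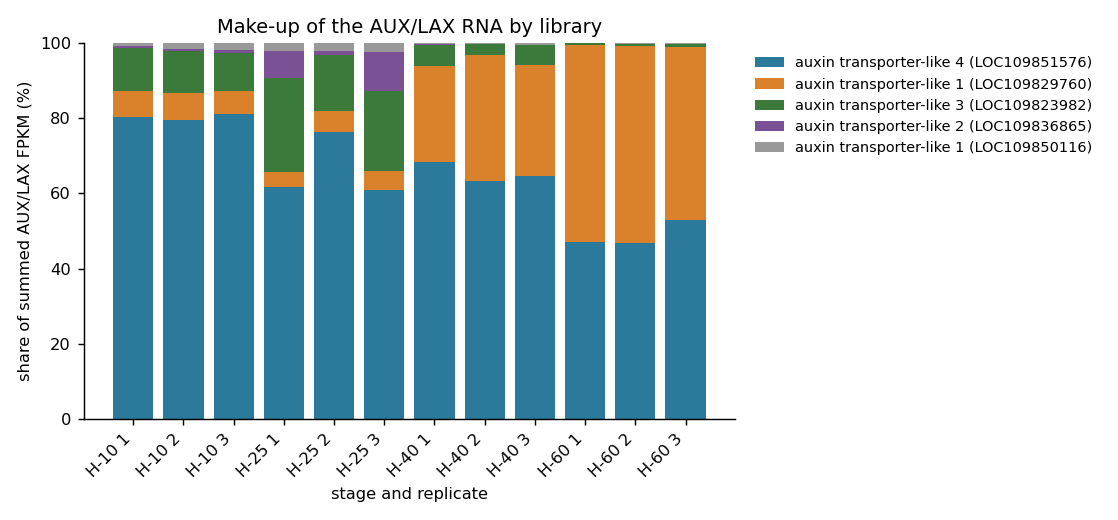
Share of each AUX/LAX gene in the summed FPKM of the family (vertical axis, percent) in each of the 12 libraries. LOC109829760 (orange) grows from 4.09% to 5.74% at H-25 to 46.1% to 52.7% at H-60, while LOC109823982 (green) falls to under 1% at H-60.

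Both PINOID genes were higher at H-25 than at H-10. The first, LOC109850438 (protein kinase PINOID, chromosome 7, 141219987 to 141221554), had 1.57, 1.59 and 2.93 FPKM at H-10, 11.6, 6.70 and 10.3 at H-25, 0.850, 0.877 and 2.33 at H-40, and 0.157, 0.622 and 0.651 at H-60. The H-25 libraries lay above all the others, and the H-60 libraries below all the others. LOC109850438 rose by a log2 fold change of 1.80 (SE 0.304, adjusted p = 0.00665) from H-10 to H-25 and fell by 2.19 on the log2 scale (adjusted p = 0.000200) between H-25 and H-40.

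The second kinase, LOC109845572 (PINOID 2-like, chromosome 6, 21212705 to 21214460), fell a stage later. Its FPKM was 2.83, 1.17 and 4.05 at H-10, 19.3, 9.78 and 14.5 at H-25, 12.4, 7.27 and 8.89 at H-40, and 2.72, 2.28 and 1.50 at H-60. H-25 and H-40 overlapped, and both lay above H-10 and H-60 in every library. The log2 fold change was 2.11 (SE 0.335, adjusted p = 0.00461) from H-10 to H-25, -0.54 (adjusted p = 0.216) between H-25 and H-40 and -1.72 (adjusted p = 0.00960) from H-40 to H-60. The rises of both kinases from H-10 to H-25 lost their call when only these 2 stages were modelled, with an adjusted p of 0.0545 for LOC109850438 and 0.0672 for LOC109845572. Whether the kinases differ from each other in their timing was not tested.

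Of the 5 tested PIN efflux carriers 2 were called lower from H-25 to H-60, where 16.2% of all tested genes were. From H-25 to H-40 it was 1 of 5, against 12.2% of all tested genes. Of 10 genes 5 were tested, and LOC109821117 (5-like) and LOC109825816 (5a) were at 0 in every library. The family summed to 45.3 ± 4.90 FPKM (SD, n = 3) at H-10 and 50.4 ± 8.63 at H-25, against 30.0 ± 5.25 at H-40 and 21.8 ± 3.68 at H-60. The H-40 and H-60 libraries, at 18.6 to 33.5, all lay below the H-10 and H-25 libraries, at 39.8 to 60.3. The sum itself was not tested, and LOC109842245 had its highest mean at H-60.

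LOC109837226 (efflux carrier component 7-like, chromosome 4, 38755553 to 38765001) and LOC109827299 (component 1d, on an unplaced scaffold) gave most of that sum. LOC109837226 had 20.6, 18.5 and 16.3 FPKM at H-10, 21.1, 21.5 and 21.5 at H-25, 20.0, 14.0 and 16.1 at H-40, and 16.7, 8.34 and 10.7 at H-60. All H-60 libraries lay below all H-25 libraries, but the log2 fold change of -0.84 (SE 0.221, adjusted p = 0.00737) was under the fold required. Without replicate 1 of H-60 it was -1.09 for LOC109837226 and called. An uncharacterised gene on the other strand, LOC109837228, overlaps it at 0.533 to 1.19 FPKM (stage means).

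LOC109827299 had 7.61, 16.4 and 29.0 FPKM at H-10, 33.4, 10.8 and 20.8 at H-25, 7.94, 6.16 and 10.6 at H-40, and 5.62, 6.58 and 6.74 at H-60. The early libraries spread widely and the late ones closely, and all late libraries lay below all H-25 libraries. LOC109827299 fell by 1.19 on the log2 scale from H-25 to H-40 (SE 0.435, adjusted p = 0.0457) and by 1.50 from H-25 to H-60 (adjusted p = 0.0126). The first of these was lost in 13 of 20 alternatives and the second without replicate 1 of H-25.

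LOC109828257 (component 6-like, unplaced) was scarcer, with 1.40 to 2.07 FPKM at H-25, 0.199 to 0.731 at H-40 and 0, 0 and 0.0965 at H-60. It was called from H-25 to H-60, at a log2 fold change of -1.35 (SE 0.254, adjusted p = 0.000930). The 2 genes described as component 2-like were not called. LOC109842626 had 9.30, 9.76 and 2.64 FPKM at H-10, 3.16, 9.51 and 1.95 at H-25, and 1.92 to 5.53 at the later stages. Its high libraries were replicates 1 and 2 of H-10 and replicate 2 of H-25. Without the latter the log2 fold change of LOC109842626 from H-10 to H-25 was -1.08 (adjusted p = 0.125). LOC109842245, for which the deposited annotation lists a reverse transcriptase domain, had 0.0613 to 1.30 FPKM. The other 3 untested genes, of components 1b, 1c and 8, stayed between 0 and 0.597 FPKM.

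**Figure D4:**
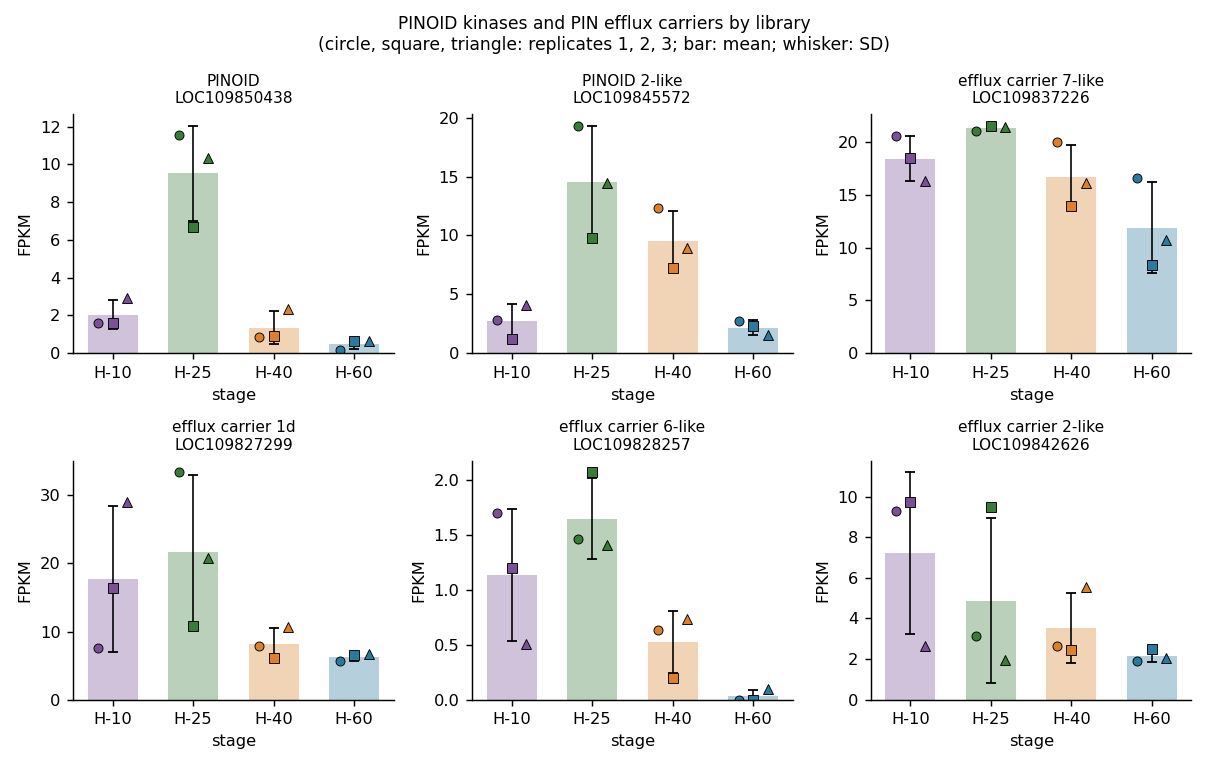
FPKM (vertical axes, linear, each with its own range) of the 2 PINOID kinases and 4 efflux carriers at the 4 stages, with 1 point per library, the mean as a bar and the SD as a whisker (n = 3). Both kinases are highest at H-25, and LOC109827299 spreads from 10.8 to 33.4 at H-25 but only from 5.62 to 6.74 at H-60.

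The PIN-LIKES as a family had overlapping levels at the 4 stages, from a summed FPKM of 78.2 ± 16.3 (SD, n = 3) at H-25, the lowest, to 93.2 ± 10.2 at H-60, the highest. Inside the family the leading gene changed. LOC109848769 (PIN-LIKES 6) made up 52.5% ± 2.71 of the sum at H-10 and 30.0% ± 3.80 at H-60, and LOC109829075 (PIN-LIKES 2-like) 20.4% ± 1.48 and 51.0% ± 6.94. LOC109829075 had 19.7, 14.3 and 17.3 FPKM at H-10, 26.8, 42.4 and 32.4 at H-25, and 35.5 to 57.1 at the later stages. The H-10 libraries lay below all others, at a log2 fold change of 0.93 (SE 0.198, adjusted p = 0.0190) to H-25 that misses the fold required. It was 1.03 without replicate 1 of H-10 and 1.08 without replicate 1 of H-25 for LOC109829075, and then called. LOC109848769 had 51.9, 37.2 and 43.0 FPKM at H-10 and 23.4 to 34.8 in all later libraries, with a log2 fold change of -0.67 (adjusted p = 0.0623) from H-10 to H-25.

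The called PIN-LIKES gene was LOC109836594 (PIN-LIKES 5-like), which had 0, 0 and 0.0390 FPKM at H-10, 1.01, 1.19 and 0.752 at H-25, 1.04, 0.252 and 3.32 at H-40, and 2.64, 7.26 and 8.13 at H-60. The H-10 libraries were the lowest, with 1 fragment in all against 76 at H-25, a ratio of 83.2 (exact 95% interval 14.5 to 3328, counting error only). From H-25 to H-60 LOC109836594 rose by a log2 fold change of 1.72 (SE 0.425, adjusted p = 0.00530), with no overlap of libraries. From H-40 to H-60 the libraries overlapped, and the log2 fold change of 1.55 (adjusted p = 0.0467) was lost in 14 of 19 alternatives.

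LOC109836594 (chromosome 4, 10509002 to 10513159) has a neighbour of the same family and strand, LOC109836596 (PIN-LIKES 7-like, 10480151 to 10484684), 24317 bases away. The neighbour had 19.7, 17.4 and 12.6 FPKM at H-10, 9.19, 12.7 and 10.1 at H-25, 5.80, 6.29 and 3.84 at H-40, and 6.75, 9.79 and 4.89 at H-60. Its highest mean was at H-10, where LOC109836594 was near 0, and its log2 fold change of -0.90 (SE 0.261, adjusted p = 0.0166) between H-25 and H-40 was under the fold required. An uncharacterised gene on the other strand, LOC109836597, overlaps both and had stage means of 0.654 to 1.90 FPKM. Since the sources used here do not give the strand setting of the counting, its fragments and those of its partners may be mixed. The other tested PIN-LIKES, LOC109839622, LOC109843597, LOC109845262 and LOC109849631, had 0.191 to 3.42 FPKM and were not called. LOC109846238 (PIN-LIKES 4-like) was not tested, at 0.0962 to 0.837.

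Of the 26 ABCB genes 18 were tested. In Arabidopsis ABCB1 and ABCB19 export auxin, whereas genes described here as mitochondrial (member 25) or chloroplastic (members 26 and 29) are not known as auxin carriers, so the name auxin carrier covers only some of these genes. The 26 genes summed to 188 ± 2.28 FPKM (SD, n = 3) at H-10 and 200.2 ± 46.0 at H-25, with the highest mean, 243 ± 36.4, at H-40 and the lowest, 160.2 ± 12.7, at H-60. The H-60 libraries, at 146 to 169, lay below all those of H-10 and H-40 and overlapped those of H-25.

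LOC109832614 (ABCB 19-like, chromosome 3, 1933769 to 1943890) was the most abundant. Its FPKM was 39.2, 44.6 and 56.4 at H-10, 40.2, 98.3 and 55.6 at H-25, 55.9, 70.0 and 107 at H-40, and 14.6, 15.4 and 37.9 at H-60. All H-60 libraries lay below all the others, and replicate 2 of H-25 was the high library of its stage. LOC109832614 fell by 1.82 on the log2 scale from H-40 to H-60 (SE 0.388, adjusted p = 0.0154), which was lost without replicate 3 of H-40 or replicate 1 or 2 of H-60 (adjusted p up to 0.0742). From H-25 to H-60 it fell by 1.51 (adjusted p = 0.00648), and by 1.17 without replicate 2 of H-25 (adjusted p = 0.0219).

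LOC109850845 (ABCB 11-like, chromosome 7, 36362376 to 36374740) peaked at H-40. It had 22.4, 21.0 and 20.4 FPKM at H-10, 10.1, 25.8 and 8.39 at H-25, 29.2, 46.8 and 42.0 at H-40, and 20.8, 21.6 and 24.7 at H-60. The H-40 libraries lay above all the others, and replicate 2 of H-25 stood with H-10. LOC109850845 rose by a log2 fold change of 1.49 (SE 0.321, adjusted p = 0.00330) between H-25 and H-40. Without replicate 2 of H-25 it was also called from H-10 to H-25, at -1.12 (adjusted p = 0.00390), and from H-25 to H-60, at 1.19 (adjusted p = 0.000394), where the full data gave -0.66 and 0.73. Its neighbour LOC109850915 (ABCB 4-like), 4697 bases away on the same strand, had 2.81 to 4.83 FPKM and was not called.

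LOC109838094 (ABCB 28) and LOC109838065 (ABCB 29, chloroplastic-like) were called lower. LOC109838094 had 4.41, 5.49 and 5.25 FPKM at H-10, 8.42, 6.91 and 9.41 at H-25, 2.80, 2.01 and 2.05 at H-40, and 1.47, 1.47 and 0.977 at H-60. Its 4 stages did not overlap, and it fell by 1.49 on the log2 scale from H-25 to H-40 (SE 0.201, adjusted p = 0.000162) and was also called lower from H-25 to H-60 (adjusted p = 9.89e-06). The H-25 libraries of LOC109838065 had 2.52, 0.718 and 2.35 FPKM, those of H-40 had 0.229, 0 and 0.518, and all H-60 libraries were at 0. The H-25 mean of LOC109838065, 1.86 FPKM, was 14.5-fold above a floor of 3 fragments per library at H-60 (0.128 FPKM). Its lowest H-25 library, at 0.718, lay nearer that floor. LOC109838065 reached 1 FPKM in only 3 libraries, the minimum for the test, so it was tested because of its high libraries. From H-25 to H-40 LOC109838065 fell by 1.15 on the log2 scale (adjusted p = 0.0103), which was lost without replicate 1 or 3 of H-25 or replicate 2 of H-40.

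LOC109825222 (ABCB 2-like) had 2.49, 4.61 and 4.40 FPKM at H-10, 3.11, 0.0829 and 4.20 at H-25, 4.98, 5.30 and 4.51 at H-40, and 0.769, 0.0672 and 0.198 at H-60. All H-60 libraries were low, and so was replicate 2 of H-25. LOC109825222 fell by 2.17 on the log2 scale from H-40 to H-60 (SE 0.476, adjusted p = 0.0174), a call that was lost without replicate 1 or 3 of H-40, without replicate 2 or 3 of H-60 and with voom. From H-25 to H-60 the log2 fold change was -1.12 (adjusted p = 0.0681), and without replicate 2 of H-25 it was -1.82 (adjusted p = 0.000271). The other abundant ABCB genes, LOC109850143 (ABCB 20, 16.7 to 30.2 FPKM) and LOC109825713 (ABCB 26, chloroplastic, 14.4 to 33.7), were not called.

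**Figure D5:**
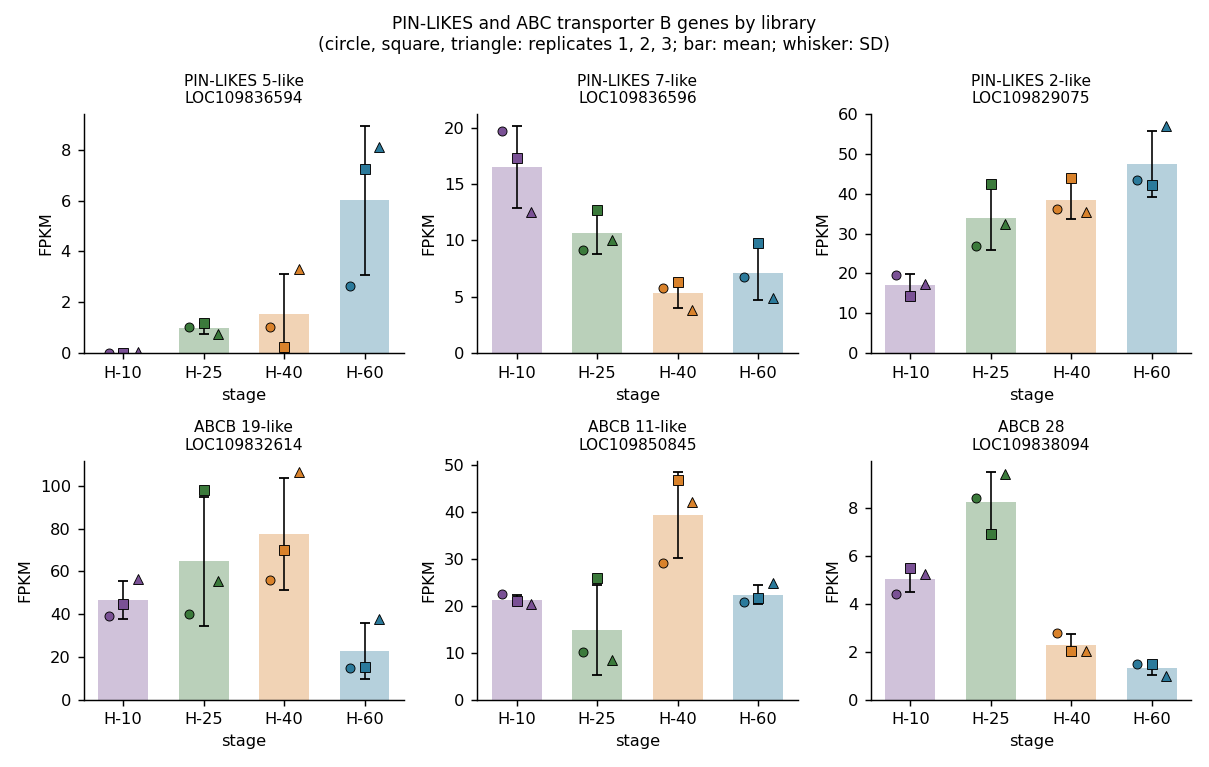
FPKM (vertical axes, linear, each with its own range) of 3 PIN-LIKES and 3 ABCB genes at the 4 stages, with 1 point per library, the mean as a bar and the SD as a whisker (n = 3). LOC109836594 is near 0 at H-10 where its neighbour LOC109836596 has its highest mean, and for LOC109832614 and LOC109850845 the square at H-25 (replicate 2) stands above the other 2 libraries.

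A few ABCB genes had 1 library far above the others of its stage. LOC109829173 (ABCB 11-like) had 9.61 FPKM in replicate 1 of H-10 against 0.229 and 0.0829 in the others. LOC109837116 (ABCB 2-like) and LOC109837684 (ABCB 13-like) were high in replicate 1 of H-60, at 20.6 and 11.5 FPKM, against at most 5.43 and 2.28 in its fellow libraries. None of these was called. The 8 ABCB genes that were not tested stayed at low levels, between 0 and 1.65 FPKM.

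Lists of marker genes also differed between the stages. The summed FPKM of 12 genes listed for the secondary wall was 307 to 541 at H-10 and 151 to 600.2 at H-25. It was 3877 to 5088 at H-40 and 3895 to 6516 at H-60. Some of the 12 are described as probable cellulose synthase subunit 8, which may not belong to the secondary wall. Among these LOC109820019 had 159 to 180 FPKM at H-10 and 54.6 to 172 at H-25, a large part of the early sums. In the test 11 of the 12 listed genes rose from H-25 to H-40, where 11.9% of all tested genes were called higher. None was at 0 in all libraries. The cellulose synthase subunits of the secondary wall, LOC109847015 (CESA4) and LOC109836391 (CESA7), had median levels of 2.39 and 2.74 FPKM at H-25, against 401 and 462 at H-40. Genes of dividing cells had a summed FPKM of 993 to 2132 at H-25 and 362 to 493 at H-40 over 27 genes, and the ribosomal protein genes 47486 to 89834 and 15642 to 19803. Genes of the epidermis summed to 7740 to 12954 FPKM at H-25, 5152 to 5507 at H-40 and 6147 to 12769 at H-60, over 45 genes. From H-25 to H-40, 5 of 25 tested were called higher and 4 lower, with a median log2 fold change of 0. Of all tested genes 11.9% were called higher and 12.2% lower there. Phloem genes summed to 80.0 to 205 at H-25 and 216 to 276 at H-40 over 28 genes, and 2 of 18 tested were called higher and 1 lower. Chlorophyll a-b binding protein genes summed to 6552 to 9980 at H-25 and 9355 to 12065 at H-40 over 17 genes. Of 16 tested, 2 were called higher and 0 lower. From H-10 to H-25, where the kinases rose, the ribosomal protein genes went from 33131 to 44986 FPKM up to 47486 to 89834. Of their 202 tested genes 35 were called higher, against 1.54% of all tested genes. The part of tissue make-up in the rise of LOC109829760 and LOC109851576 and in the fall of LOC109836865 and the kinases was not tested.

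Other genes of auxin transport and action were taken from lists of gene descriptions. Among 27 tested regulators of carriers (NPY, rac-like GTPases and their interactors, GNOM, BIG, clathrin and others) 5 rose and 2 fell from H-25 to H-40, which is 25.9% against 24.1% of all tested genes. Limma called 0 from H-10 to H-25 and 0 from H-40 to H-60, where 5 and 4 had an unadjusted p under 0.05 and 22.7% and 22.2% of all tested genes did. LOC109844002 (NPY1, in Arabidopsis a partner of PINOID) rose from a mean of 1.39 to 10.2 FPKM between H-25 and H-40, at a log2 fold change of 2.24 (SE 0.238). The rac-like GTPases LOC109839941 (from 4.14 to 34.9 FPKM) and LOC109837701 (from 77.4 to 341) also rose, whereas LOC109840336 fell from 102 to 39.3. LOC109850386 (GNOM-like, which in Arabidopsis recycles PIN proteins) had 17.3 and 21.1 FPKM and was not called.

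WAT1-related genes, one of which exports auxin from the vacuole in Arabidopsis, are not in the carrier list. Of 22 tested, 3 fell from H-10 to H-25, where 2.91% of all tested genes were called lower. From H-25 to H-40, 10 rose and 0 fell, with a median log2 fold change of 0.94, where 11.9% of all tested genes were called higher. LOC109850186 (WALLS ARE THIN 1-like) went from a mean of 93.8 to 295 FPKM between H-25 and H-40, and LOC109823030 from 0.903 to 47.3. From H-25 to H-60, 16 of 22 rose, against 16.3% of all tested genes. The difference between these shares and those of the carriers was not tested.

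Of 5 tested auxin synthesis genes, 1 was called from H-25 to H-40, a share of 20% against 24.1% of all tested genes. It was LOC109844997 (tryptophan aminotransferase-related), which fell from a mean of 5.26 to 0.352 FPKM. Of 10 genes that inactivate or release auxin, 2 rose and 1 fell, a share of 30% against the same 24.1%. LOC109835146, an indole-3-acetic acid-amido synthetase that conjugates auxin, rose from 0.841 to 8.99 FPKM, and LOC109839952, a dioxygenase of the DAO type that oxidises auxin, fell from 6.00 to 0.720. The paper reports high late expression of a DAO gene, at H-60 in its sequencing and also by PCR. Whether LOC109839952 is that gene was not established here. From H-25 to H-60, 3 of the 10 genes rose and 1 fell, a share of 40% against 32.5% of all tested genes. Among 39 genes of perception and response, 5 rose and 4 fell from H-25 to H-40, a share of 23.1% against 24.1% of all tested genes. Among them were the receptor-like LOC109832830 (transport inhibitor response 1-like), from 31.2 to 123 FPKM, and LOC109833243 (AUXIN SIGNALING F-BOX 3-like), from 42.5 to 17.2.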

How the data were processed

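RNA of whole stem segments was sequenced with strand-specific libraries, 3 at each of 4 stages. HISAT2, StringTie, featureCounts and DESeq2 are named in the submitters' processing notes. The notes hold no versions, and the methods give one for the last of these tools alone. Neither the options nor the build of the genome were stated in the sources used here. The authors deposited FPKM per gene and library, and their 4 columns of group means were left out. The columns H1 to H4 were read as the stages of 10, 25, 40 and 60 cm in height. FPKM times gene length came out as whole multiples of 1 step per library for 100% of values (tolerance 0.01), which gave the fragments; totals ran from 13468440 to 16980659.

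Values were taken as log2(FPKM + 1), kept where 3 or more libraries had at least 1 FPKM, and modelled in limma 3.58.1 (R 4.3.3) over all 12 libraries with a mean for each stage and a trended eBayes step. Values and fragments were read with numpy 2.4.6 and pandas 2.3.3. A pseudocount of 1 understates the change of low genes. Coordinates are those of Aspof.V1, the same in the deposited table for all 32237 genes with a RefSeq ID. The methods describe biological replicates at each stage and sequencing done 3 times, but not how plants were divided among libraries, so p-values reflect only how these libraries spread.

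Deviations of same-numbered libraries from their stage means correlated at r = 0.115, 0.123 and 0.105 for H-40 and H-60, each over 0.1. For H-25 and H-40 the values were 0.331, 0.208 and -0.0553. Neither the labels nor the methods state a pairing of libraries, and whether one exists was not tested. The numbers are those of the labels.

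Named with values were all tested members outside the ABCB family, the ABCB genes called in any comparison and the 4 most abundant ABCB genes; 3 ABCB genes high in 1 library, untested genes and genes of other lists were named after their values were seen. The members and lists were chosen with earlier results of these data known. Alternatives were a pseudocount of 0.1, no filter, a mean FPKM of at least 5, TPM, quantile normalization, limma voom on the fragments, only the 2 stages compared, a replicate block and leaving out each library in turn.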

Additional observations from a re-analysis of the deposited data

How the results depend on the processing

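Of 31 called values of named members, 20 kept their call in every alternative run and 11 lost it in at least 1, while 11 uncalled values gained one; none reversed. The counts of members called that moved by more than 1.5 times were these. Higher from H-10 to H-25 (3) became 1 under the stricter filter of a mean FPKM of 5, which removes low members from the test, and 0 with only the 2 stages compared; lower (0) ranged from 0 to 1 when single libraries were left out, with 1 without replicate 2 of H-25. Higher from H-25 to H-40 (3) became 5 with a pseudocount of 0.1 and 6 with voom, and lower (6) became 1 under the stricter filter. Higher from H-40 to H-60 (2) became 1 with the pseudocount of 0.1, no filter, the stricter filter, quantile normalization, voom and only the 2 stages compared, and ranged from 0 to 2 with single libraries left out; lower (4) ranged from 2 to 4, with 2 without replicate 3 of H-40 and without replicate 2 of H-60. Higher from H-25 to H-60 (3) became 7 with the pseudocount of 0.1, 5 with TPM and 7 with voom, and ranged from 3 to 6, with 6 without replicate 2 of H-25; lower (10) became 4 under the stricter filter. The causes were not tested.

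Over all tested genes, calls from H-10 to H-25 (905) fell to 205 with only the 2 stages compared and ranged from 338 without replicate 3 of H-25 to 2054 without replicate 2 of H-25, with 367 without replicate 2 of H-10 and 405 without replicate 1 of H-25. Calls from H-40 to H-60 (1080) became 625 under the stricter filter and ranged from 631 to 1280.

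With the replicate block the members called were 3 higher and 0 lower from H-10 to H-25, 3 and 6 from H-25 to H-40, 2 and 4 from H-40 to H-60, and 3 and 10 from H-25 to H-60, and all genes called 1043, 4984, 1161 and 6671. The block changed no call of a named member. By label the libraries of a block share only a number, with r from -0.0926 to 0.331 over all 18 same-numbered pairs and 10 of them over 0.1.

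With 1 fragment worth 0.0522 to 0.0795 FPKM for a gene of 1 kb, values under about 0.2 FPKM rest on a few fragments.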

Other observations

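The 38 tested members had their highest stage mean at H-10 in 7 cases and at H-25 in 11. The later stages had 10 each. By family, 3 of 5 AUX/LAX genes, 3 of 5 efflux carriers and both kinases were highest at H-25, against 0 of 8 PIN-LIKES and 3 of 18 ABCB genes. The same count was not made over all tested genes, so whether peaks at H-25 are unusual was not tested. Members near the FPKM minimum are in these counts because of the stage where they are high.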
